A study of Mus musculus with 16 samples.

Results

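The transcripts described here encode the precursors of 8 neuropeptides made or proposed to be made by neurons of the hippocampal formation: Cck, Grp, Penk, Pdyn, Tac1, Tac2, Adcyap1 and Nts. They were taken by gene symbol from the 17986 genes present in both blocks of the deposited expression table. All 8 were found, and 6 of them reached 1 FPKM (fragments scaled to transcript length and library depth) in at least 2 libraries and were tested. Pdyn and Adcyap1 did not reach it and are given as levels only.

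CA1, an output field of the hippocampus, was cut by laser from 8 µm sections of brains frozen without perfusion. The mice were males of 3 to 6 months on a C57Bl6 background, labelled either wild type or Neil3-/-. Neil3 encodes a DNA glycosylase that starts base excision repair. The home cage groups, which had no intervention, held 2 libraries per genotype label. The spatial exploration groups held 3 libraries per label, from mice placed in an open field with sides of 50 cm for 20 min a day over 1 week and killed 20 min after the last session. Each library came from its own mouse, so p-values measure the spread between mice within a group.

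Neuropeptides are cut from larger precursors inside dense-core vesicles by convertases and carboxypeptidases, released on strong or repeated firing, and read by G protein-coupled receptors on other cells. Cholecystokinin, from Cck, is known from pyramidal cells and from a class of basket interneurons, and Penk and Pdyn encode the enkephalins and dynorphins, which act on opioid receptors. Tac1 and Tac2 encode substance P and neurokinin B, Grp encodes gastrin-releasing peptide, Nts encodes neurotensin, and Adcyap1 encodes PACAP.

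At the level of the whole gene, Neil3 transcript ran opposite to the genotype labels. Values per gene do not show which exons the fragments came from, and the reason for this direction was not tested. Neil3 ranged from 0 to 0.05 FPKM under the wild type label (5 libraries) and from 8.35 to 15.22 FPKM under the Neil3-/- label (5 libraries), a difference of 12.85 FPKM (exact two-sided permutation test, p = 0.00794, the smallest that 252 splits allow). The groups are therefore called WT-labelled and KO-labelled throughout, and each direction below is that of the labels. FPKM summed to 405718 to 466701 per library. Depth, estimated from the spacing of low values, was 18000000 to 19200000 fragments per library, so that 1 fragment on a transcript of 1 kb was worth about 0.054 FPKM. Each environment has its own block of the table, and whether both blocks were normalized together is not given in the sources used here. A difference between environments therefore cannot be told apart from one between blocks.

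The promoters of 3 precursors are shown because each holds a motif of activity-regulated transcription factors within 300 bases around the start site. The sequences are from RefSeq (GRCm38.p6) and run 5′ to 3′ on the strand of the gene. Capitals mark the matches. The Cck promoter lies at chr9:121495645-121495944 (minus strand), that of Tac1 at chr6:7554811-7555110 (plus strand) and that of Nts at chr10:102490369-102490668 (minus strand).
Cck: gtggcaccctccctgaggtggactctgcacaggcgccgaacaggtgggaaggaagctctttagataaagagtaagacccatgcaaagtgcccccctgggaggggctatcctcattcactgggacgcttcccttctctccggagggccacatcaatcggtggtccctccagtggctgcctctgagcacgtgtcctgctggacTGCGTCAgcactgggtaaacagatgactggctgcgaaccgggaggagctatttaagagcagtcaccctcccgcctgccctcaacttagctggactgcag
Tac1: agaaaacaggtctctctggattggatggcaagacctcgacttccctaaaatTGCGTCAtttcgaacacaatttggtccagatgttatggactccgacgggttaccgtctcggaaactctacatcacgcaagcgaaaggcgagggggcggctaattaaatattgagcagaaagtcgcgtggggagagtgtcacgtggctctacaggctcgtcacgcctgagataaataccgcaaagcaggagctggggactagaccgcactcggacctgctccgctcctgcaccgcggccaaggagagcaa
Nts: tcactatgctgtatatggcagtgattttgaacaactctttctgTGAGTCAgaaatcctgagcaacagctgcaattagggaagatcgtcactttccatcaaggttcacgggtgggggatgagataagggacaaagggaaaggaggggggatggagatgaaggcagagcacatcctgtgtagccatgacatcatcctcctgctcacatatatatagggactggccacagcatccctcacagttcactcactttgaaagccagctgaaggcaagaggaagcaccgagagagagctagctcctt
Cck and Tac1 share TGCGTCA, the letters of the cAMP-responsive element first described in the proenkephalin promoter, starting 49 bases before the start site in Cck and 199 bases before it in Tac1. Nts holds TGAGTCA, the AP-1 motif TGACTCA read on the other strand, starting 207 bases before its start. Searching both strands of 32851 promoters of that length, 2.12% held TGCGTCA, 5.2% held TGACTCA, 1.79% held the cAMP-responsive element TGACGTCA and 13.62% held TATAAA. Adcyap1 had TATAAA starting 58 bases before 1 of its starts, and no searched motif was in the windows of Pdyn and Tac2. The promoters of Grp and Penk were not examined for motifs, so their place outside this list says nothing of their motifs. A match is a description of letters, not of a bound site.

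Cck was by far the most abundant precursor per length of transcript. In the home cage it read 1657 and 1569 FPKM in the WT-labelled libraries and 1689 and 1236 FPKM in the KO-labelled ones. After exploration it read 1653, 1673 and 2086 FPKM in the WT-labelled libraries and 1990, 1756 and 2088 FPKM in the KO-labelled ones. The genotype groups overlapped in both environments, and KO-labelled home cage library 2 was the lowest of all 10. By its mean Cck ranked 11 of the 17986 genes.

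Penk followed at 75.97 to 134.99 FPKM. In the home cage it read 121.34 and 134.99 FPKM in the WT-labelled libraries and 108.19 and 75.97 FPKM in the KO-labelled ones. After exploration it read 86.96, 103.51 and 123.51 FPKM in the WT-labelled libraries and 88.04, 83.41 and 101.17 FPKM in the KO-labelled ones. The home cage groups did not overlap, with both KO-labelled libraries below both WT-labelled ones, and the exploration groups did. Pdyn, the other opioid precursor of the set, read 0.28 to 0.62 FPKM in all 10 libraries, which is 12.3 to 26.5 estimated fragments. Its exploration groups overlapped, while the home cage groups (0.38 and 0.44 against 0.37 and 0.36 FPKM) lay apart by less than the worth of 1 fragment, 0.023 FPKM.

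Grp varied most. It read 1.73 and 9.36 FPKM in the WT-labelled home cage libraries and 40.28 and 58.83 FPKM in the KO-labelled ones. After exploration it read 14.83, 6.06 and 5.23 FPKM in the WT-labelled libraries and 20.6, 3.54 and 1.16 FPKM in the KO-labelled ones. Both KO-labelled home cage libraries stood above the other 8, and the remaining 3 groups overlapped. The highest library was 50.72 times the lowest, and the lowest, KO-labelled exploration library 3, rested on 26.9 estimated fragments. On the log2(FPKM + 1) scale its range was 4.79, wider than that of 99.9% of tested genes, and its spread within groups (SD 1.21) was also at the top of the tested genes.

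Nts read 0 and 0.47 FPKM in the WT-labelled home cage libraries and 1.82 and 3.56 FPKM in the KO-labelled ones. After exploration it read 1.19, 0.31 and 0.53 FPKM in the WT-labelled libraries and 1.13, 0.8 and 0.6 FPKM in the KO-labelled ones. As for Grp, the KO-labelled home cage libraries were the highest of the 10, and the exploration groups overlapped. These are low values, from 0 to 78.9 estimated fragments per library.

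The tachykinin precursors were close in level. Tac1 read 3.94 and 5.89 FPKM in the WT-labelled home cage libraries, 6.64 and 11.95 in the KO-labelled ones, 6.26, 6.43 and 5.32 in the WT-labelled exploration libraries and 7.68, 5.21 and 8.4 in the KO-labelled ones. Tac2 read, in the same order of groups, 5.44 and 6.34, then 4.48 and 3.31, then 5.8, 7.31 and 9.56, and last 5.19, 5.94 and 7.79 FPKM. In the home cage Tac1 was higher and Tac2 lower in both KO-labelled libraries than in both WT-labelled ones, and the exploration groups overlapped for both genes. With 2 libraries per label in the home cage, such a separation of any precursor is weak evidence of a difference. Its share over all tested genes was not counted. Adcyap1 read 0 to 0.16 FPKM, at most 9.5 estimated fragments, and is not separable from 0 in the KO-labelled home cage libraries at this depth.

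**Figure D1:**
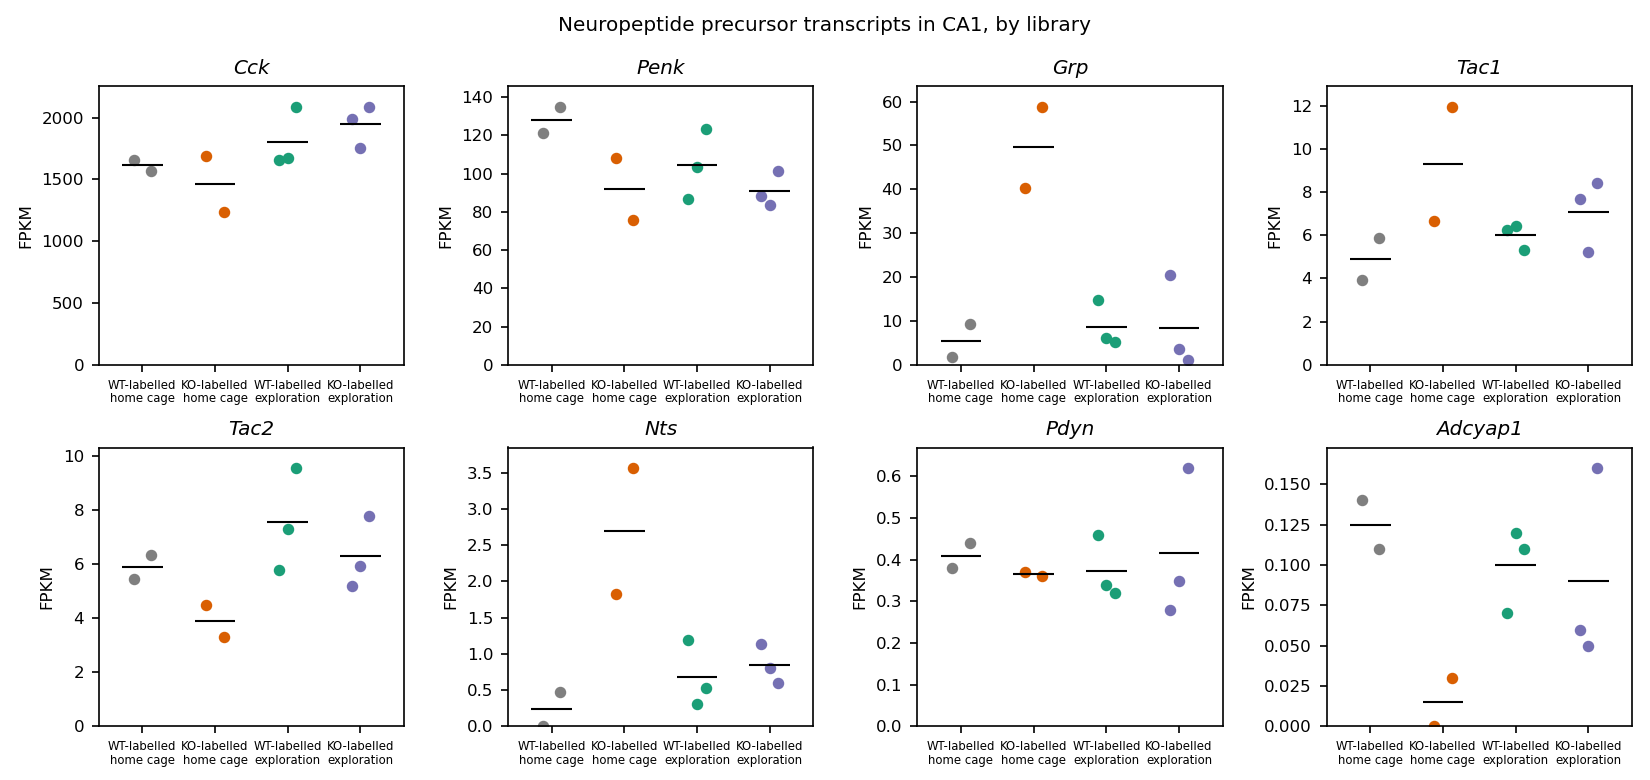
FPKM (y axis, from 0, a separate scale per gene) of the 8 precursors in each library, with 1 point per library and a line at the group mean. The KO-labelled home cage libraries stand above all others for Grp and Nts, while for Cck the genotype labels overlap within each environment.

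The first comparison asked whether the genotype labels differed in mice without intervention. Nts was higher in the KO-labelled home cage group by 1.56 on the log2(FPKM + 1) scale (SE 0.28, 95% interval 0.95 to 2.18, limma adjusted p = 0.0192), with both KO-labelled libraries above both WT-labelled ones. It was the only 1 of the 6 tested precursors past an adjusted p of 0.05, where 3.57% of all 11892 tested genes passed. Grp had the larger difference, 3.22 (SE 0.87, 95% interval 1.32 to 5.13), but did not pass (limma adjusted p = 0.068). Grp passed when only the 4 home cage libraries were fitted (limma adjusted p = 0.00954), and its adjusted p ran from 0.0128 to 0.381 when single libraries were left out. The call of Nts ended without WT-labelled home cage library 1 (1.29, limma adjusted p = 0.172) or KO-labelled home cage library 2 (1.22, adjusted p = 0.137).

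The other 4 precursors did not pass in the home cage. Tac1 differed by 0.77 (SE 0.25, limma adjusted p = 0.119), Penk by -0.49 (SE 0.18, adjusted p = 0.156), Tac2 by -0.50 (SE 0.21, adjusted p = 0.226) and Cck by -0.16 (95% interval -0.51 to 0.20). Without KO-labelled home cage library 1, both Penk (-0.75, limma adjusted p = 0.047) and Tac1 (1.15, adjusted p = 0.0337) passed. Of the 6 precursors 5 had an unadjusted p under 0.05, 3 of them higher and 2 lower, as had 18.3% of all tested genes.

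KO-labelled home cage library 2, which was lowest or highest for Cck, Penk, Grp, Tac1, Tac2 and Nts, also stood apart in genes that mark regions of CA1 and neighbouring tissue. Wfs1, a marker of dorsal CA1 pyramidal cells, read 218.93 and 192.41 FPKM in the WT-labelled home cage libraries, 127.3 and 64.88 FPKM in the KO-labelled ones and 153.1 to 238.69 FPKM after exploration. The whole list of 8 CA1 pyramidal markers, all of them in the table, summed to 898.8 to 900.88 FPKM in the WT-labelled home cage group, 791.36 to 885.25 in the KO-labelled one, 844.36 to 947.18 in the WT-labelled exploration group and 859.81 to 972.93 in the KO-labelled one. The sum hides opposite changes. In the home cage 4 of these 8 were higher in the KO-labelled group. By limma 1 was called higher and 2 lower, beside 3.57% of all tested genes. Mpped1 read 218.98 and 234.32 FPKM in the KO-labelled home cage libraries against 156.77 and 183.51 in the WT-labelled ones. Fibcd1 read 175.35 and 180.19 against 150.28 and 156.81 FPKM. Dcn, a marker of ventral CA1 chosen after its values were seen, read 27.24 FPKM in KO-labelled home cage library 2, 2.82 in library 1 and 0.2 to 2.12 in the other 8. The 5 subiculum markers summed to 8.93 to 9.59 FPKM in the KO-labelled home cage group and 4.34 to 6.8 elsewhere, and the 8 neocortex markers to 58.93 to 68.35 against 39.39 to 53.33. Each sum rested largely on a single gene in the KO-labelled home cage group. Cbln4 read 6.4 and 5.25 FPKM there and 1.82 to 3.5 elsewhere, and Fezf2 read 32.12 and 38.04 against 12.23 to 22.86. In the home cage 4 of 5 tested neocortex markers were higher in the KO-labelled group. Tbr1 was lower, at 7.08 and 9.03 FPKM against 15.21 and 10.23 in the WT-labelled libraries. The 6 astrocyte markers summed to 60.42 to 65.97 FPKM in the WT-labelled home cage group, 93.3 to 119.7 in the KO-labelled one and 71.38 to 103.25 after exploration. The 7 dentate markers summed to 16.79 to 21.72 FPKM in the WT-labelled home cage group, 3.87 to 7.3 in the KO-labelled one and 12.45 to 23.9 after exploration. Most of that sum was Lct, at 1.06 to 22.29 FPKM, which was lower in the KO-labelled home cage group (-2.33, limma adjusted p = 0.0217), while Prox1 read at most 0.5, C1ql2 at most 0.3 and Dsp at most 0.01. The 8 striatal markers summed to 32.63 to 50.91 FPKM over all libraries, most of it Ppp1r1b at 24.95 to 46.23, with Drd1 at most 0.2 and Drd2 at most 0.35. The 6 choroid plexus markers summed to 235.75 and 17.84 FPKM in the WT-labelled home cage libraries and 9.48 to 14.23 in the KO-labelled group. After exploration they summed to 16.26 to 131.81 FPKM in the WT-labelled group and 10.64 to 16.58 in the KO-labelled one. Ttr read 218.7, 118.06 and 93.56 FPKM in 3 libraries, all WT-labelled, and at most 4.24 in the others. WT-labelled home cage library 1 also stood apart from library 2. Its CA2 markers summed to 162.08 FPKM against 107.21, and its CA3 markers to 75.13 against 44.75. Amigo2, a CA2 marker, read 16.11 against 1.78 FPKM, and Cpne4, a CA3 marker, 13.45 against 1.73. The part of these markers in the differences of the precursors was not tested, and in bulk tissue fewer cells of a type and less RNA per cell cannot be told apart.

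After exploration, none of the 6 tested precursors differed between the genotype labels by limma, where 0.597% of all tested genes passed. None had an unadjusted p under 0.05, beside 17.2% of all tested genes. No precursor was called under any alternative. The differences ran from -0.57 for Grp (95% interval -2.13 to 0.98) to 0.19 for Tac1 (-0.26 to 0.64), with Nts at 0.16 (-0.34 to 0.67) and Cck at 0.11 (-0.18 to 0.40). Averaged over both environments, Nts was higher in the KO-labelled libraries by 0.86 (SE 0.18, limma adjusted p = 0.0403) and the other 5 did not pass, with 2.13% of all tested genes called. That call of Nts ended in 7 of the 10 fits that left out 1 library, in which the difference ran from 0.69 to 1.04.

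**Figure D2:**
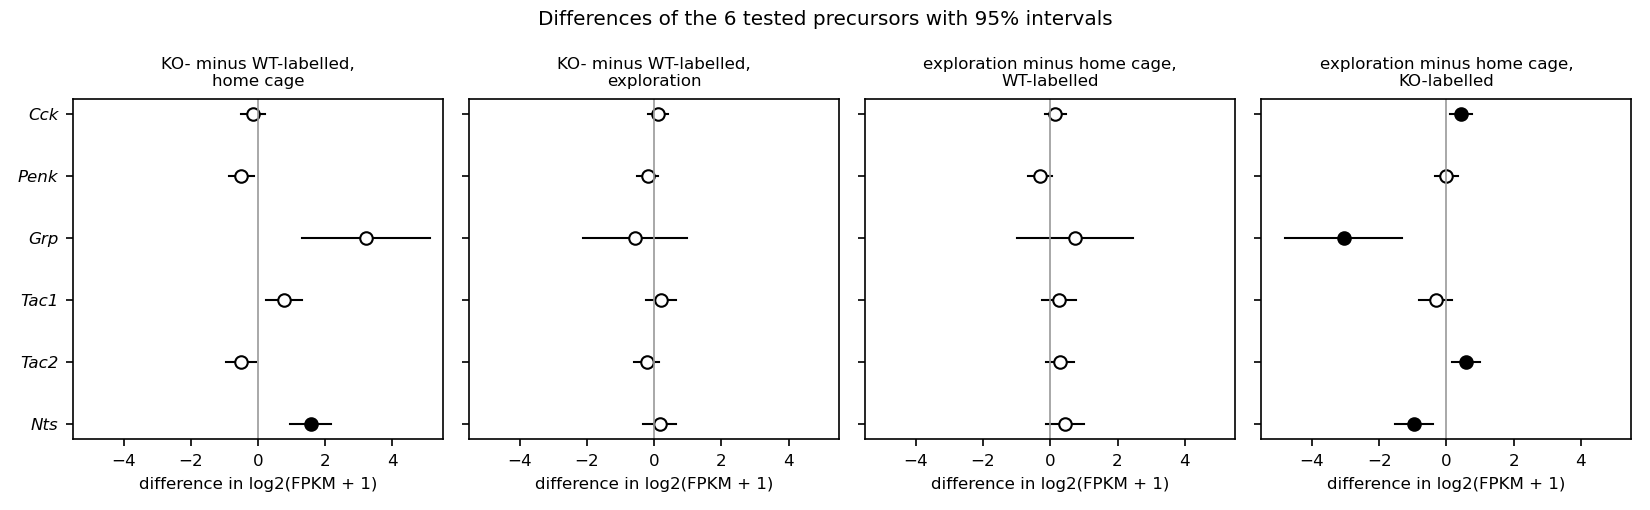
Differences in log2(FPKM + 1) (x axis) of the 6 tested precursors in the 4 comparisons between pairs of groups, with 95% intervals; filled points passed an adjusted p of 0.05 in limma. Nts is filled for the genotype labels in the home cage, and Cck, Grp, Tac2 and Nts for exploration in the KO-labelled libraries.

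Exploration was compared with the home cage within each label. In the WT-labelled libraries none of the 6 precursors passed by limma, beside 6.31% of all tested genes. None had an unadjusted p under 0.05, beside 22.7% of all tested genes. The differences were -0.30 for Penk (95% interval -0.65 to 0.05), 0.15 for Cck (-0.17 to 0.48) and 0.74 for Grp (SE 0.80). Without WT-labelled home cage library 1, Grp turned to -0.22.

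In the KO-labelled libraries 4 of 6 precursors passed, beside 28.6% of all tested genes. Grp fell by 3.06 (SE 0.80, limma adjusted p = 0.0165) and Nts fell by 0.97 (SE 0.26, adjusted p = 0.0182). Tac2 rose by 0.57 (SE 0.19, limma adjusted p = 0.0427) and Cck rose by 0.42 (SE 0.15, adjusted p = 0.0498). Penk (-0.002) and Tac1 (-0.32) did not pass. All 4 calls ended without KO-labelled home cage library 2, where Grp was -2.79, Nts -0.62, Tac2 0.40 and Cck 0.20. The calls of Grp and Nts held without any 1 of the other 9 libraries, whereas that of Tac2 was lost in 6 of 10 such fits and that of Cck in 7. In the same comparison 4 of 5 tested CA2 markers were called higher, among them Amigo2 (2.22, limma adjusted p = 0.0172). Of 5 tested CA3 markers 4 were called higher, among them Bok (2.39, limma adjusted p = 0.000769) and Cpne4 (2.24, adjusted p = 0.00975). Grik4, also a CA3 marker, was called lower (-0.90, limma adjusted p = 0.0203). These counts stand beside 28.6% of all tested genes called. The 6 CA2 markers summed to 97.74 to 102.5 FPKM in the KO-labelled home cage group, 111.16 to 154.76 in the KO-labelled exploration group and 107.21 to 162.08 in the WT-labelled groups. The 6 CA3 markers summed to 43.75 to 48.54, 82.64 to 103.04 and 44.75 to 76.87 FPKM in that order. Most of the CA2 sum was Rgs14, at 94.11 to 127.09 FPKM over all libraries. Amigo2 read 0.9 and 1.58 FPKM in the KO-labelled home cage group, 6.06 to 16.93 in the KO-labelled exploration group and 1.78 to 16.11 in the WT-labelled groups. The part of the CA2 and CA3 markers in the differences of the precursors was not tested. These comparisons and the home cage comparison share the KO-labelled home cage libraries. Averaged over both labels, Tac2 rose by 0.43 (SE 0.14, limma adjusted p = 0.0299) a call lost in 4 of 10 such fits, and Cck differed by 0.29 (adjusted p = 0.0529), with 31.9% of all tested genes called.

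The difference between the labels in their response to exploration was tested directly. None of the 6 precursors passed by limma, with 0.875% of all tested genes called. An unadjusted p under 0.05 was reached by 2 of the 6, beside 16.1% of all tested genes. Grp differed by -3.80 (SE 1.12, limma adjusted p = 0.115) and Nts by -1.40 (SE 0.36, adjusted p = 0.0804). Grp passed without KO-labelled exploration library 1 (-4.73, limma adjusted p = 0.0161), and Nts without KO-labelled home cage library 1 (-1.75, adjusted p = 0.0337).

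For each tested precursor the genes with the most similar profile were found by Pearson's r of log2(FPKM + 1), centred on the mean of each block, over the 10 libraries. The points share libraries, and each gene is the highest of 11892, so r is a description. Penk and Tac2 were among the nearest to each other (r = 0.948), and both had Tmem151a as the nearest gene (0.983 and 0.979) and Gm15867 among the first 3. Grp was nearest to Cpne7 (0.983), Pea15a (0.982) and Fxyd6 (0.979). Nts was nearest to Pcdh7 (0.976), Gyg (0.969) and D8Ertd82e (0.963), and its r with Grp was 0.853. Tac1 was nearest to Hspa4l (0.960), Farp1 (0.934) and Grin2c (0.932), and Cck to Fkbp1a (0.940), Ndufa8 (0.927) and Arpc4 (0.916). Penk and Nts ran opposite ways (r = -0.796).

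**Figure D3:**
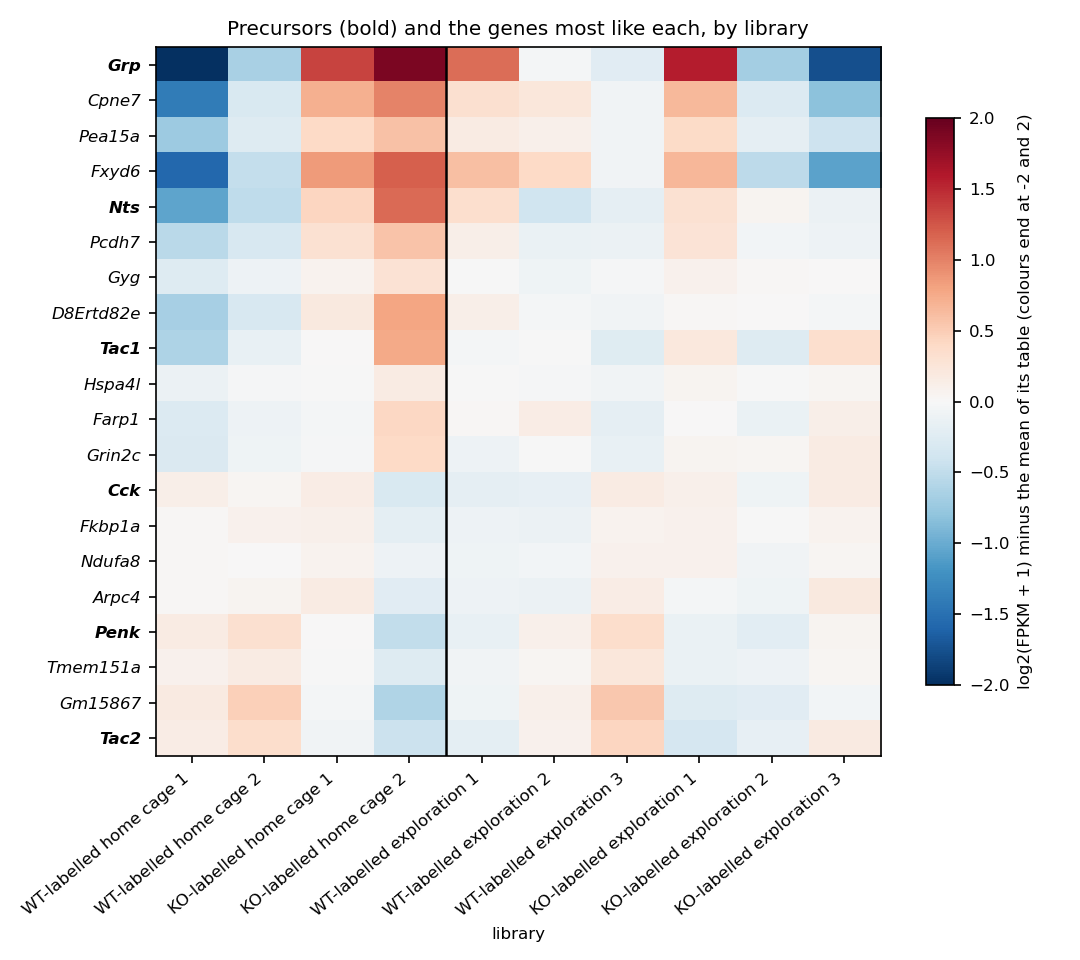
Deviation of log2(FPKM + 1) from the mean of its block (colour, ending at -2 and 2) for the 6 tested precursors (bold) and the genes most like each, by library, with a line between the blocks. The KO-labelled home cage libraries are high for Grp and Nts and low for Penk and Tac2.

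The receptors of these peptides were mostly low. Cckbr, the main cholecystokinin receptor of the brain, read 0.8 to 2.34 FPKM, and Cckar at most 0.02. Of the opioid receptors, the mu receptor Oprm1 read at most 0.25 FPKM, the kappa receptor Oprk1 at most 0.42 and the delta receptor Oprd1 0.52 to 1.21, while Oprl1, the nociceptin receptor, read 17.67 to 23 FPKM. The substance P receptor Tacr1 read at most 0.4 FPKM, the neurokinin B receptor Tacr3 at most 0.53, and Grpr, the receptor of gastrin-releasing peptide, at most 0.2. Not low were Ntsr2, a neurotensin receptor, at 21.64 to 34.94 FPKM and Adcyap1r1, the PACAP receptor, at 6.49 to 16.04 FPKM. Sort1, a sorting receptor that binds neurotensin, was the highest of the list at 115.18 to 141.99 FPKM.

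None of the 9 tested of 17 receptors differed between the labels in the home cage by limma, beside 3.57% of all tested genes. An unadjusted p under 0.05 was reached by 2 of the 9, beside 18.3% of all tested genes. After exploration 1 of 9 differed by limma, beside 0.597% of all tested genes. Ntsr1, a neurotensin receptor, read 3.11, 3.13 and 2.51 FPKM in the WT-labelled libraries and 1.33, 1.5 and 1.7 FPKM in the KO-labelled ones, with no overlap. The difference was -0.64 (SE 0.11, limma adjusted p = 0.0281). The call ended in 4 of the fits that left out 1 exploration library (without WT-labelled library 1 or 2, or KO-labelled library 1 or 2), with an adjusted p of up to 0.164. Exploration against home cage in the KO-labelled libraries gave 3 called lower and 1 called higher of 9, beside 28.6% of all tested genes called. Ntsr1 fell by 0.90 (limma adjusted p = 0.00112) and kept its call without any single library. Adcyap1r1, the PACAP receptor, fell by 0.87 (adjusted p = 0.00276), from 11.16 and 16.04 FPKM to 6.49 to 7.31 FPKM, and Ntsr2 rose by 0.46 (adjusted p = 0.013). Both calls ended without KO-labelled home cage library 2 (-0.63 and 0.36). In the WT-labelled libraries none of the 9 receptors passed, beside 6.31% of all tested genes. None had an unadjusted p under 0.05, beside 22.7% of all tested genes.

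**Figure D4:**
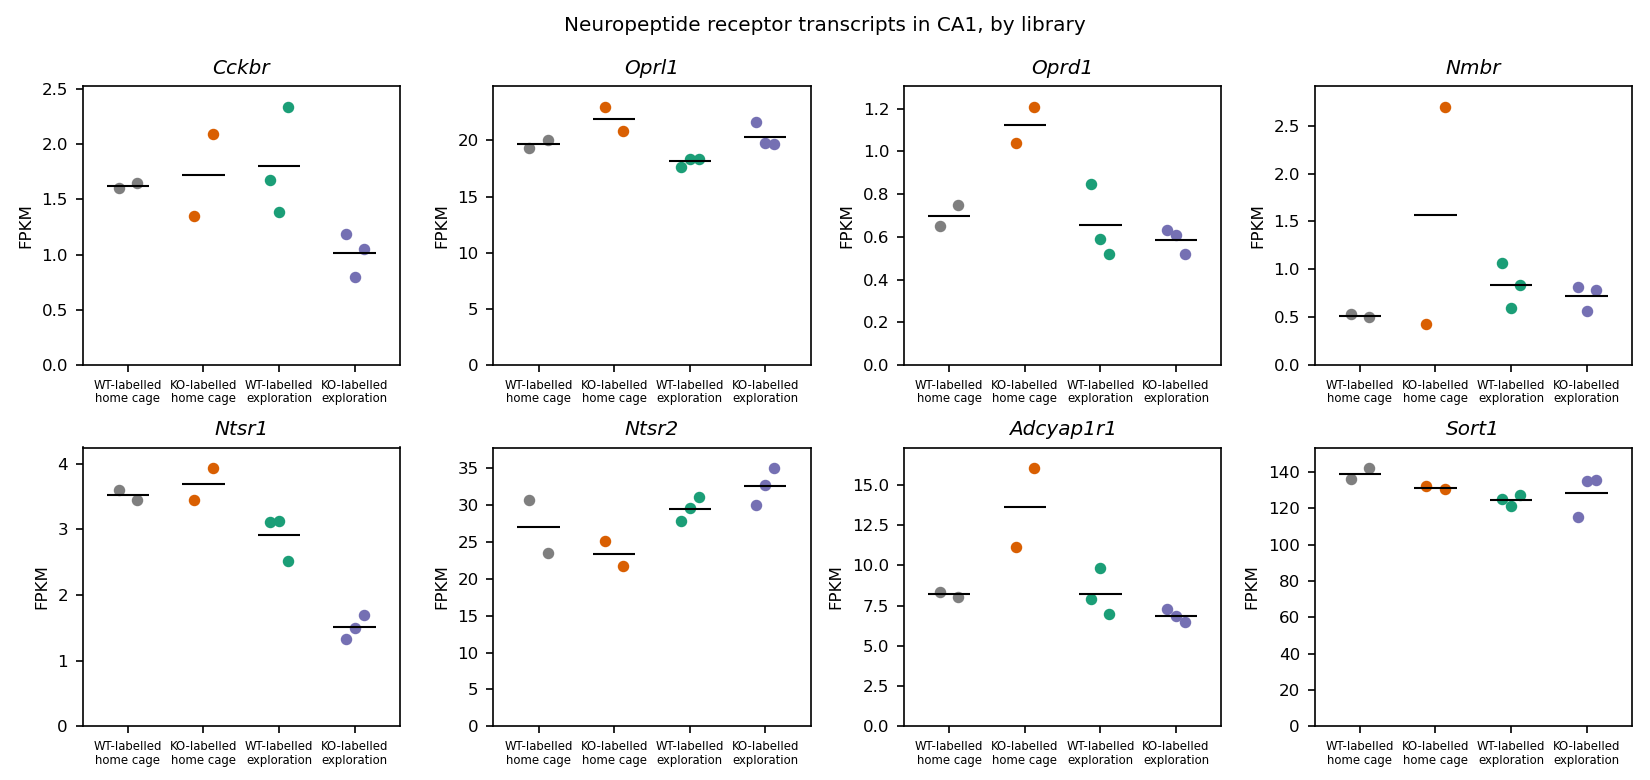
FPKM (y axis, from 0, a separate scale per gene) of 8 receptor transcripts in each library, with 1 point per library and a line at the group mean. Ntsr1 in the KO-labelled exploration libraries lies at 1.33 to 1.7 FPKM, below the other groups.

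Levels of the processing enzymes ranged widely. Cpe, the carboxypeptidase that trims the cut peptides, read 965.78 to 1292 FPKM, Pcsk2, a convertase, 71.48 to 86, and Pam, which amidates peptide ends, 33.32 to 40.23, whereas Pcsk1, the other main convertase, read 0.88 to 3, Qpct 1.05 to 2.02, Pcsk6 0.92 to 1.35 and Pcsk5 at most 0.11. In the home cage 1 of 13 tested enzymes was called higher in the KO-labelled group, where 3.57% of all tested genes were called. It was Pcsk1n, which encodes an inhibitor of Pcsk1 (0.46, limma adjusted p = 0.038), and that call ended in 8 of the 10 fits without 1 library. Of 16 tested dense-core vesicle genes 1 was called higher, beside the same share. It was Scg3 (0.39, limma adjusted p = 0.0462), a call lost in 6 of those 10 fits. After exploration no gene of either list was called between the labels by limma, beside 0.597% of all tested genes. An unadjusted p under 0.05 was reached by 1 of 13 enzymes and 2 of 16 vesicle genes, beside 17.2% of all tested genes.

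Exploration in the KO-labelled libraries gave 2 called higher and 3 called lower of 13 enzymes, where 28.6% of all tested genes were called. Furin fell by 0.71 (limma adjusted p = 0.00114), Cpd fell by 0.66 (adjusted p = 0.00199) and Ctsl, a lysosomal protease, rose by 0.50 (adjusted p = 0.00228), and these 3 kept their calls without any single library. Of 16 dense-core vesicle genes 1 was called higher and 7 were called lower. Chgb, a granin, rose by 0.48 (adjusted p = 0.0138), Cadps2 fell by 0.47 (adjusted p = 0.0053) and Vps13a fell by 0.56 (adjusted p = 0.0139). All 3 calls ended without KO-labelled home cage library 2, and that of Chgb also without library 1. Of 11 peptidases 1 was called lower, Ide (-0.31, limma adjusted p = 0.0388), a call lost in 5 of the 10 fits without 1 library. In the WT-labelled libraries none of these 3 lists had a gene called by limma, beside 6.31% of all tested genes. An unadjusted p under 0.05 was reached by 3 of 13, 1 of 16 and 2 of 11 genes, beside 22.7% of all tested genes.

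Among 14 tested of 40 other neuropeptide precursors, 2 were called lower in the KO-labelled home cage group, beside 3.57% of all tested genes called. Oxt, the oxytocin precursor, read 3.63 and 4.27 FPKM against 0 and 0.22 (-2.16, limma adjusted p = 0.0273), and Cartpt read 8.89 and 4.08 against 2.47 and 0.77 (-1.52, adjusted p = 0.0345). The call of Oxt ended without any 1 of the 4 home cage libraries, and that of Cartpt without WT-labelled home cage library 1, KO-labelled home cage library 2, WT-labelled exploration library 1 or 2, or KO-labelled exploration library 2. After exploration in the WT-labelled libraries, 2 of the 14 passed, beside 6.31% of all tested genes. Oxt fell by 1.71 (limma adjusted p = 0.0311), with 0, 2.41 and 0 FPKM after exploration, a call lost without either WT-labelled home cage library or WT-labelled exploration library 1 or 3. Sst, the somatostatin precursor of interneurons, rose by 1.02 (adjusted p = 0.00435), from 56.78 and 62.98 FPKM to 148.38, 133.93 and 92.84 FPKM. The call of Sst held without any single library but not over the 7 libraries under 50 FPKM of the choroid plexus marker Ttr (0.55, adjusted p = 0.389), a setting added after seeing the data. In the KO-labelled libraries 4 of 14 were called higher, a share equal to the 28.6% of all tested genes called in either direction. Among the 4 were Cartpt (1.25), Apln (0.82, limma adjusted p = 0.00219) and Npy (0.57, adjusted p = 0.0272). Apln kept its call without any single library, Cartpt lost it without KO-labelled home cage library 2 (0.76), and Npy without either KO-labelled home cage library or KO-labelled exploration library 3.

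For scale, 10 of 11 immediate early genes were called higher with exploration in each label by limma. Beside them, 6.31% of all tested genes were called in the WT-labelled libraries and 28.6% in the KO-labelled ones, in either direction. Fos was among the 10 and read 2.5 to 16.28 FPKM in the 4 home cage libraries and 36.1 to 49.65 FPKM in the 6 exploration libraries. The interneuron markers summed to 126.5 to 165.62 FPKM in the home cage and 159.55 to 214.52 FPKM after exploration. Scaling each library to the same sum (TPM) moved the median difference of all genes with exploration from -0.04 to -0.15 in the KO-labelled libraries, from -0.02 to -0.11 in the WT-labelled ones and from -0.03 to -0.13 in their average.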

How the data were processed

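Values were the FPKM per gene and library that the authors deposited, scaled to transcript length and depth. HISAT, StringTie, GATK, Bowtie2 and RSEM and the builds GRCm38 and mm10 are named in the submitters' processing notes, without roles. Of 16 samples, 10 were used; 6 from a learning condition were not analysed here. The blocks, with 19156 and 18257 genes, were joined on gene ID.

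Genes reaching 1 FPKM in 2 or more libraries were tested with limma 3.58.1 (R 4.3.3) on log2(FPKM + 1), which understates changes of low genes. All 10 libraries were fitted as 4 group means with a variance trend (6 residual and 5.71 prior degrees of freedom), tested on simulated data, and p-values were adjusted by Benjamini-Hochberg over all tested genes. Replicate numbers only name libraries.

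Members and lists were chosen with earlier results of these data known. Named genes were all members and Neil3, up to 3 called genes per list and comparison with the largest change, the known receptors and convertases, and the 3 genes most like each member. Alternatives were another pseudocount, filters, scalings, variance settings, the compared groups alone and each library left out.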

Additional observations from a re-analysis of the deposited data

How the results depend on the processing

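No paired analysis was possible because the replicate numbers only name the libraries in accession order and tie no mouse to another. Over the results for named genes, 1641 values were recomputed, of which 1435 kept their direction and side of the threshold, 171 lost a call, 14 gained one and 21 changed sign. As reported, the number of the 6 tested precursors called was 1 for genotype in the home cage, 1 for its average, 4 for exploration in the KO-labelled libraries and 1 for its average. With no filter it was 0 in all 4. With a filter of 5 FPKM it was 0 for both genotype comparisons, where Nts was no longer tested, and 2 for the exploration average. For genotype in the home cage it was 2 with quantile normalization or the compared groups alone, and for the genotype average 0 with a pseudocount of 0.1. For exploration in the KO-labelled libraries it was 2 scaled to TPM, with no variance trend or with the compared groups alone. For the exploration average it was 0 scaled to TPM and 2 with robust empirical Bayes. Over the 7 libraries under 50 FPKM of Ttr, which leave 1 WT-labelled library per environment, assumed to vary like the others, it was 0, 0, 2 and 0 in that order. Leaving out 1 library gave 0 to 3, 0 to 1, 0 to 5 and 0 to 2, and 0 to 1 for the difference in response.

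The sign changed in results that were not called. For exploration, Nts averaged was 0.004 with a pseudocount of 0.1, Penk in the KO-labelled libraries 0.061 with size factors, and Tac1 averaged 0.013 with size factors and 0.077 with quantile normalization. Over the libraries under 50 FPKM of Ttr, Cck for genotype after exploration was -0.105, and in the WT-labelled libraries Grp was -0.734 and Tac1 -0.125 for exploration. Leaving out 1 library gave -0.225 to 1.699 for Grp in the WT-labelled libraries, -0.254 to 0.251 for Penk and -0.70 to 0.061 for Tac1 in the KO-labelled ones, and -0.22 to 0.161 for Tac1 averaged. For genotype it gave -0.383 to 0.067 for Cck in the home cage, -0.135 to 0.09 for Cck averaged and -1.501 to 0.16 for Grp after exploration. The cause was not tested. The direction of Neil3 was the same with each library left out and with size factors. Depth limits Nts, Pdyn and Adcyap1 most, and with 2 or 3 mice per group a difference that did not pass is not shown to be absent.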

Other observations

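Further markers that differ along CA1 or lie beside it, chosen after seeing the data and not tested, were read per library. Etv1 read 17.88 and 20.08 FPKM in the WT-labelled home cage libraries, 24.08 and 33.28 FPKM in the KO-labelled ones and 14.01 to 19.14 FPKM after exploration. Htr2c read 7.42 FPKM in KO-labelled home cage library 2 and 3.11 to 4.15 FPKM in the other 9. Ndst4 read 9.41 and 11.36 FPKM in the WT-labelled home cage libraries, 7.62 and 8.24 FPKM in the KO-labelled ones and 5.23 to 8.92 FPKM after exploration. Gpc3 and Col5a1 read at most 0.26 and 0.23 FPKM.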
